A study of Mus musculus with 11 samples.

Results

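The forkhead genes encode transcription factors that share a winged-helix DNA-binding domain, named after a fly homeotic gene. The 41 mouse genes examined here were taken from a fixed list of Fox symbols, and all 41 were found among the 21887 protein-coding genes of the RefSeq table. They fall into subfamilies lettered from Foxa to Foxs. In lymphocytes, the FoxO proteins are held in the cytoplasm when PI3K and Akt are active, and otherwise bind genes of homing, survival and cell-cycle arrest. Foxp1 is known for keeping T cells quiescent, Foxp3 defines regulatory T cells, and Foxn1 acts in the thymic epithelium and not in the T cell itself. Many other members act as lineage regulators of the embryo and are among the classic targets of Polycomb repressors, whose mark is H3K27me3.

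The study mapped Zmiz1, a PIAS-like coactivator, together with activated Notch1 (ICN1), its DNA-binding partner Rbpj and 4 histone marks by ChIP-seq. It used mouse 8946 cells, a T lymphoblastic leukaemia/lymphoma line. All cells carried both an epitope-tagged Zmiz1 with an NGFR marker and an activated Notch1 with a GFP marker, delivered by retrovirus, and doubly marked cells were sorted. There were 11 libraries from 2 transduced lines. The line with Flag-Zmiz1 and Notch1 construct L1601PDP (Flag line) gave Flag-Zmiz1, ICN1, Rbpj, the histone marks and an input. The line with HA-Zmiz1 and construct DEGFDLNRDP (HA line) gave HA-Zmiz1, ICN1 and an input. Both the tagged Zmiz1 and the Notch1 allele were introduced, and no library came from cells without them. With 1 library for each target and line there was no spread between replicates, so none of the differences below could be tested.

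The 5 factor libraries kept 13.5 M to 19.0 M filtered tags, and the inputs 36.4 M (Flag line) and 26.8 M (HA line). A histone segment is a stretch that the authors called enriched over its control, and its fold is the deposited ratio of precipitate to control. The deposited folds are larger than the plain ratios of the read counts given here. The factor was 1.53 for H3K4me3, 1.24 for H3K4me1, 1.56 for the library labelled H3K27me3 and 1.82 for that labelled H3K27ac. All 16 listed T-cell markers, Cd3e, Lck and Bcl11b among them, had H3K4me3 over a gene end and no segment of the library labelled H3K27ac. Of the B-cell markers 0 of 8 had that pattern, of the myeloid markers 1 of 8, of the thymic epithelial markers 1 of 6, of the endothelial markers 0 of 4 and of the fibroblast markers 1 of 5. The H3K27 libraries went against their labels. The library labelled H3K27ac covered 0 of 20 housekeeping genes and 14 of 20 developmental regulators known as Polycomb targets. The library labelled H3K27me3 covered 19 of those housekeeping genes and 1 of those regulators. The deposited segment tables of these libraries are also named the other way round from the labels of their samples. They are called here by their labels, and "Polycomb-like" stands for the segments of the library labelled H3K27ac.

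Over the whole family, the Polycomb-like library stood apart. A segment of the library labelled H3K27ac lay over at least 1 gene end in 23 of the 41 forkhead genes, 56.1%, against 18.9% of all coding genes. H3K4me3, a mark of active promoters, lay over an end in 18 forkhead genes, 43.9%, against 46.6% of all coding genes. The library labelled H3K27me3 did so in 16 forkhead genes, 39.0%, against 43.1% of all coding genes. H3K4me1, a mark of enhancers and promoter flanks, did so in 5 forkhead genes, 12.2%, against 23.8% of all coding genes. Counted anywhere in the gene span, H3K4me1 was at 18 forkhead genes, 43.9%, against 55.4% of all coding genes. Over gene ends, the last 3 shares were at or below the genome-wide level, and the first was well above it.

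**Figure D1:**
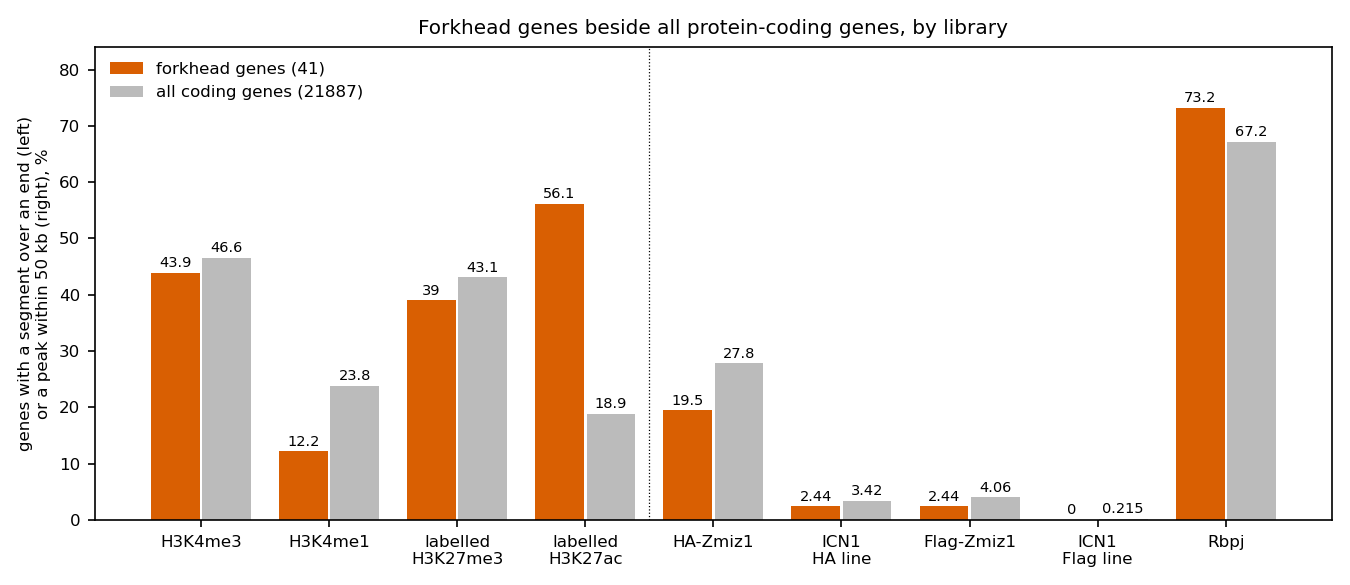
Share of the 41 forkhead genes (orange) and of all 21887 coding genes (grey), in percent, with a histone segment over either gene end (left of the dotted line) or a factor peak within 50 kb of the gene span (right of it). The bars for the library labelled H3K27ac are the ones farthest apart, at 56.1% of forkhead genes and 18.9% of all coding genes.

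Sorted by H3K4me3 and by the Polycomb-like library over their ends, 15 forkhead genes were active, with H3K4me3 alone, against 40.6% of all coding genes. A further 20 were covered by the Polycomb-like library alone, against 12.9% of all coding genes. Both libraries covered 3 members (5.92% of all coding genes) and neither covered 3 (40.5% of all coding genes). The active members were Foxb1, Foxh1, Foxj1, Foxj2, Foxj3, Foxk1, Foxk2, Foxm1, Foxn2, Foxn3, Foxo1, Foxo3, Foxo4, Foxp1 and Foxp4. The Polycomb-like members were Foxa1, Foxa2, Foxa3, Foxb2, Foxc1, Foxc2, Foxd1, Foxd3, Foxd4, Foxe1, Foxe3, Foxf1, Foxf2, Foxi1, Foxi3, Foxl1, Foxl2, Foxn4, Foxp2 and Foxs1. Foxd2, Foxo6 and Foxq1 had both, and Foxi2, Foxn1 and Foxp3 had neither.

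Many subfamilies held a single class. All members of the Foxj (3) and Foxk (2) subfamilies were active, as were the single members of the Foxh and Foxm subfamilies and 3 of 4 Foxo genes. All members of the Foxa (3), Foxc (2), Foxe (2), Foxf (2) and Foxl (2) subfamilies were Polycomb-like, as were 3 of 4 Foxd genes. The Foxb, Foxn and Foxp subfamilies were split: Foxb1 was active and Foxb2 Polycomb-like, and Foxp1 and Foxp4 were active while Foxp2 was Polycomb-like. The genes also differed in length, with a median span of 49.9 kb in active members and 3.35 kb in Polycomb-like members, against 21.3 kb and 20.9 kb in all coding genes of those classes.

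**Figure D2:**
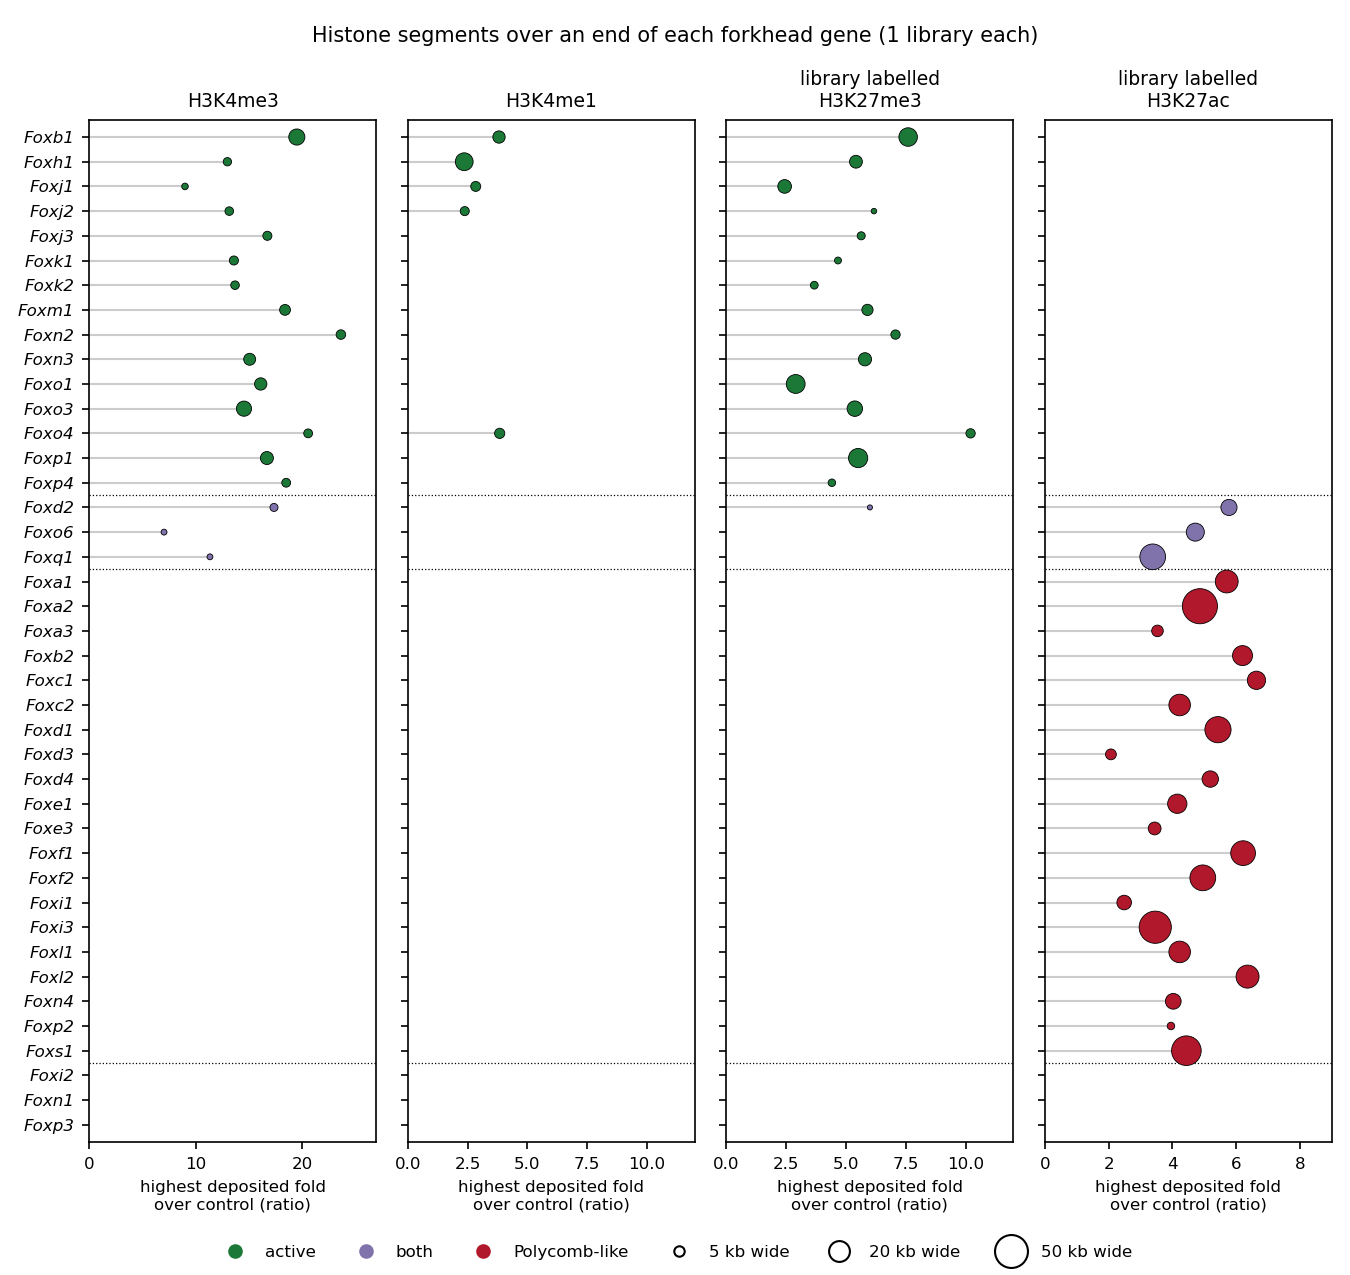
Highest deposited fold over control (horizontal axes, which differ between panels) of the segments over an end of each forkhead gene, in the 4 histone libraries, 1 library each. Dot area is the width of the widest segment and colour the class, and no dot means no segment over an end. The 15 active members at the top carry H3K4me3 and the library labelled H3K27me3, and the 20 Polycomb-like members carry the library labelled H3K27ac alone.

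Among active members, the folds of H3K4me3 ran from 9.0 (Foxj1) to 23.7 (Foxn2). The median was 16.1, against 15.2 in all active coding genes, and the median width 3.8 kb, against 3.4 kb. All 15 also had a segment of the library labelled H3K27me3 over an end, against 95.5% of all active coding genes, with a median width of 5.8 kb against 3.6 kb. H3K4me1 lay over an end in 5 of the 15, against 39.4%.

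The FoxO genes Foxo1, Foxo3 and Foxo4 carried broad or strong promoter segments. Foxo1, the main FoxO factor of T-cell homing, had H3K4me3 over 7.0 kb at its start (1976 reads, against 188 in the control, fold 16.1, counting interval 13.9 to 18.8). Foxo3 had 10.6 kb (3054 reads against 322, fold 14.5, interval 13.0 to 16.4), which was wider than 99.2% of all H3K4me3 segments. Foxo4 had 3.6 kb at its lower-coordinate end (644 reads against 48, fold 20.6, interval 15.3 to 28.2) and 2.4 kb at the other, where the segment also held an end of Gm614. These intervals are exact, at 95%, and cover counting error only. Foxo1 was also marked along its body. Of its 81.8 kb span, 87.6% lay in H3K4me1 segments, 70.5% in segments of the library labelled H3K27me3 and 31.1% in H3K4me3 segments. These shares were higher than in 99.2%, 98.2% and 98.3% of the 2020 active coding genes of at least 50 kb, whose medians were 16.2%, 8.23% and 4.56%. Foxo3 had 32.9%, 24.3% and 8.75% in the same order.

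Among Foxp genes, Foxp1 had 7.8 kb of H3K4me3 over its start-side end (2461 reads against 226, fold 16.7, interval 14.6 to 19.2). Over its 597 kb span it held 23 H3K4me3, 41 H3K4me1 and 33 segments of the library labelled H3K27me3. They covered 8.56%, 41% and 28.4% of the span, which put H3K4me1 above 81.6% of active coding genes of at least 50 kb. Foxp4 had 3.6 kb of H3K4me3 at its start (1026 reads against 85, fold 18.5, interval 14.8 to 23.4). It also had 1 segment of the Polycomb-like library within its span, over 2.43% of it.

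The active Foxn, Foxk, Foxj and Foxm genes had H3K4me3 segments of 2.0 to 6.6 kb. Foxn2 had the highest fold of the family (1419 reads against 92, fold 23.7, interval 19.2 to 29.5, 4.2 kb). Foxn3, known as a checkpoint suppressor, had 6.6 kb (fold 15.1, interval 13.1 to 17.5) and 10 H3K4me3 segments over its 374 kb span. Foxm1, a regulator of genes of mitosis, had 5.4 kb (fold 18.4, interval 15.2 to 22.5), a segment that also held an end of Rhno1. Foxk1 (fold 13.6), Foxk2 (13.7), Foxj2 (13.2) and Foxj3 (16.7) had 3.4 or 3.8 kb each. The segment at Foxj3 also held an end of Frg2f1.

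Foxj1, Foxh1 and Foxb1 differed from each other in their marks. Foxj1, the regulator of motile cilia, also known for restraining NF-kB and activation in T cells, had the weakest H3K4me3 of the active members (405 reads against 69, fold 9.0, interval 6.96 to 11.8, 2.0 kb), and an end of Rnf157 lay in the same segment. A segment of the Polycomb-like library covered 37.5% of the Foxj1 span without reaching an end. It came close to the end with H3K4me3, as a Rbpj peak with its summit 14 bp inside that end overlapped it. Counted anywhere in the span, Foxj1 had both marks. Foxh1, a partner of Smad proteins in Nodal signalling, had 1 H3K4me3 segment at each end (folds 9.49 and 13.0), holding ends of Kifc2 and Ppp1r16a. Whether those marks belong to Foxh1, Foxj1, Foxj3 and Foxm1 or to their neighbours cannot be told apart from the segments. Without H3K4me3 segments that hold an end of another gene, and with all Polycomb-like segments kept, 7 members had neither library, against 3 before.

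Foxb1, a gene of the developing brain, shared its H3K4me3 segment with no other gene. The segment was 12 kb wide and wider than 99.5% of all H3K4me3 segments, with 4402 reads against 346 (fold 19.5, interval 17.5 to 21.8). The library labelled H3K27me3 covered 15.8 kb there (fold 7.60, interval 6.85 to 8.45), and H3K4me1 7.0 kb at the lower-coordinate end (fold 3.81, interval 3.25 to 4.50). The Polycomb-like library had no segment over the gene. Foxb1 was also the sole forkhead gene with an ICN1 peak within 50 kb.

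That site lay just outside the lower-coordinate end of Foxb1 (mm10), where 3 factors were called at overlapping positions. HA-Zmiz1 had its peak at chr9:69757355-69757611, with a summit pileup of 20 tags and a deposited fold over input of 9.40, 149 bp from the gene. ICN1 in the HA line had its peak at chr9:69757477-69757559, with a pileup of 13 and a fold of 7.05, 200 bp from the gene. Rbpj had its peak at chr9:69757287-69757638, with a pileup of 30 and a fold of 7.49, 207 bp from the gene. The HA-Zmiz1 fold was the highest of the 21 HA-Zmiz1 peaks near the family. A second HA-Zmiz1 peak (fold 6.54), overlapped by Rbpj, lay 28.9 kb from the gene within H3K4me3. The Flag-Zmiz1 library had 1 peak (fold 5.75) 39.8 kb away, in no histone segment, and ICN1 had none in the Flag line. The site was thus called for Zmiz1 and ICN1 in the HA line alone, while Rbpj and the histone marks came from the Flag line.

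**Figure D3:**
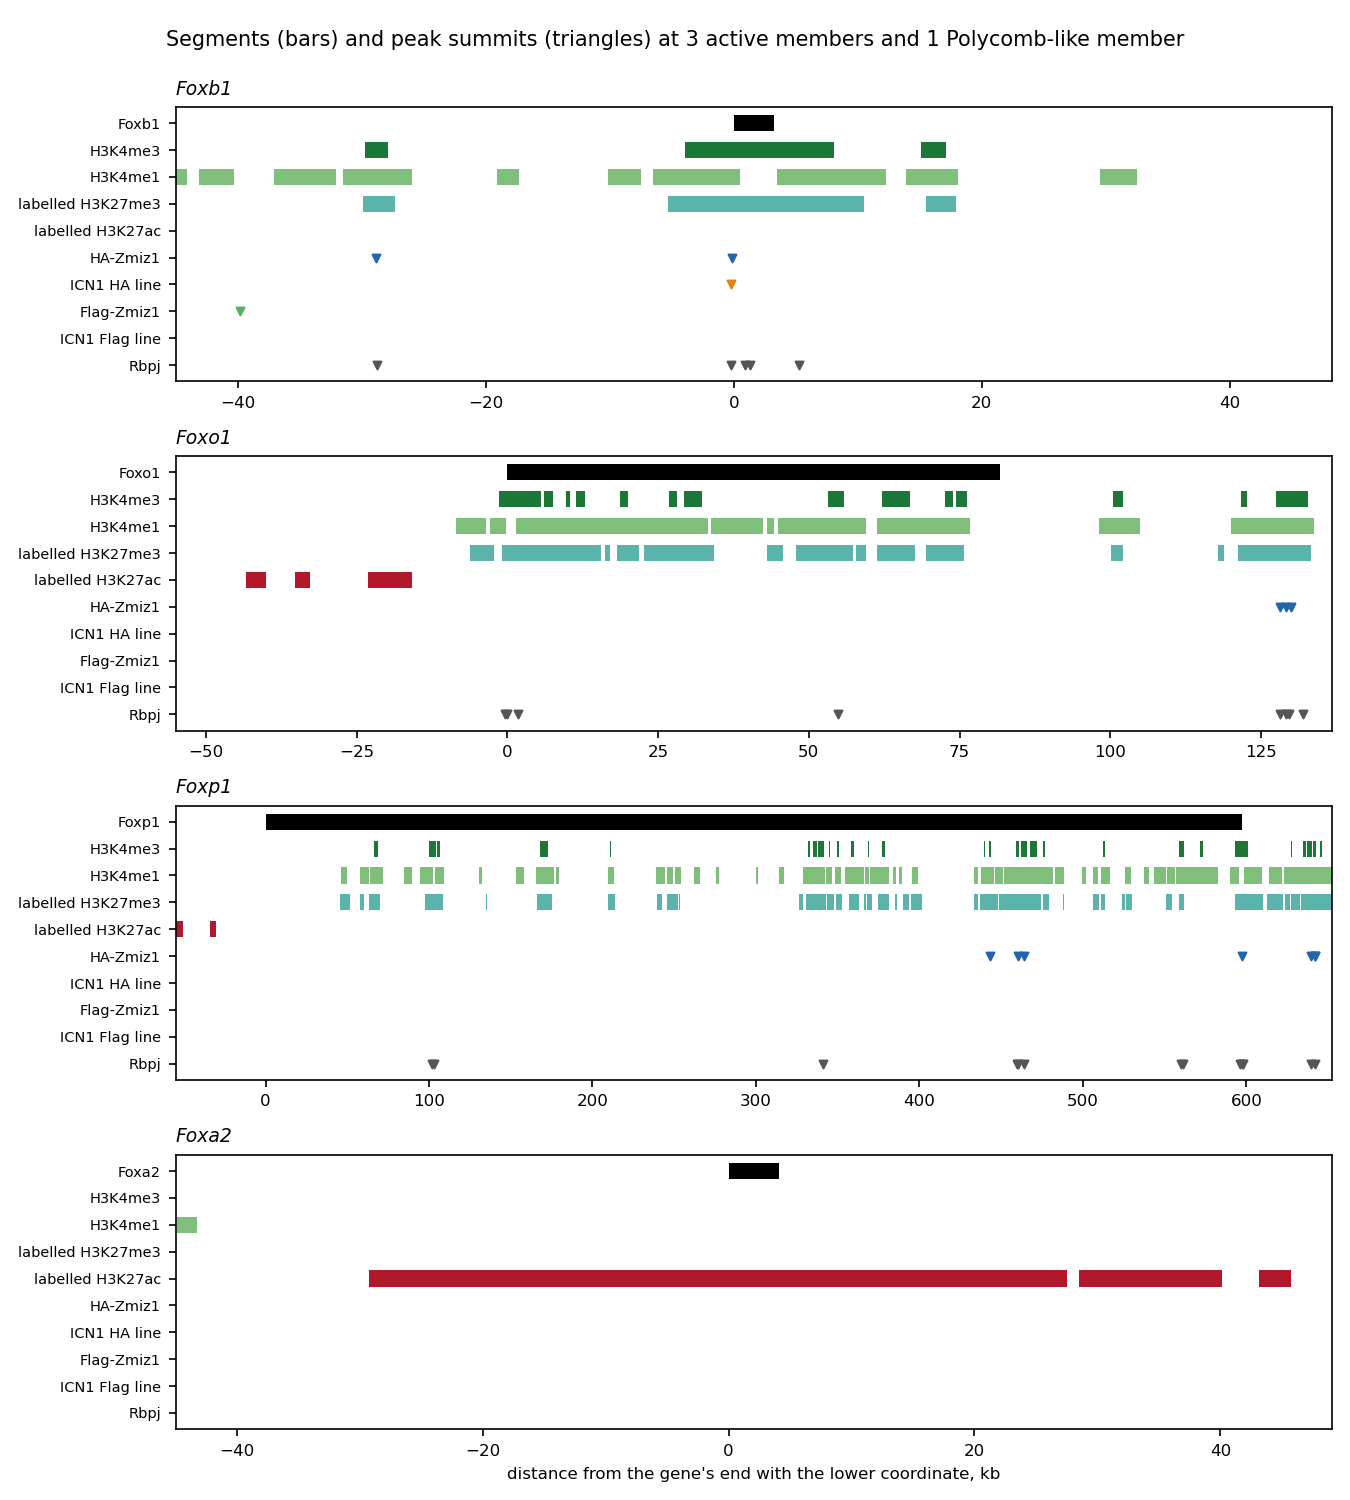
Histone segments (bars) and factor peak summits (triangles) around Foxb1, Foxo1, Foxp1 and Foxa2, by distance in kb from the gene's end with the lower coordinate, with the gene as a black bar. Foxb1 sits in a single 12 kb H3K4me3 segment with HA-Zmiz1, ICN1 and Rbpj summits at its end, while Foxa2 lies in a Polycomb-like segment of 56.8 kb with no factor peak in the drawn range.

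Zmiz1 near the family was almost wholly HA-Zmiz1. Within 50 kb of the gene span, HA-Zmiz1 had peaks at 8 of 41 forkhead genes, 19.5%, against 27.8% of all coding genes. Flag-Zmiz1 had a peak at 1 (4.06% of all coding genes), ICN1 in the HA line at 1 (3.42%) and ICN1 in the Flag line at 0 (0.215%). The libraries differed widely in how much was called, with 4984 peaks for HA-Zmiz1, 581 for Flag-Zmiz1, 414 for ICN1 in the HA line and 82 for ICN1 in the Flag line. Without Foxb1, ICN1 in the HA line and Flag-Zmiz1 had no peak within 50 kb of any forkhead gene.

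All 8 forkhead genes with HA-Zmiz1 were active, that is 8 of 15 active members, against 43% of all active coding genes, and 0 of 20 Polycomb-like members, against 21.4% of all Polycomb-like coding genes. ICN1 in the HA line and Flag-Zmiz1 were each at 1 active member (5.59% and 4.24% of all active coding genes) and at 0 Polycomb-like members (2.12% and 6.14% of all Polycomb-like coding genes). The 21 peaks all overlapped H3K4me3 and the library labelled H3K27me3, as did 93.2% and 93.6% of all HA-Zmiz1 peaks. H3K4me1 overlapped 18 (82.8% of all HA-Zmiz1 peaks), Rbpj 15 (71.3%) and the Polycomb-like library 0 (1.93%). Counted per 100 kb of span and window, active members had 0.689 HA-Zmiz1 peaks on average, against 0.619 in all active coding genes. The nearest HA-Zmiz1 summit to a Polycomb-like member was 58.4 kb away, at Foxe1, and the median distance was 321 kb, against a median of 46.4 kb in active members. Within 200 kb, 22 of the 41 forkhead genes had an HA-Zmiz1 peak, against 52.6% of all coding genes, and 9 of the 22 were Polycomb-like. Neither the distances nor the 200 kb counts by class were taken over all coding genes. Distances and windows were measured from the gene span, so longer genes reach more peaks. Median spans were 49.9 kb in active members, 3.35 kb in Polycomb-like members and 20.9 kb in all Polycomb-like coding genes. How much of these differences follows from gene length was not tested.

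Foxp1 had the most HA-Zmiz1 peaks, 7. The strongest (fold 8.58, pileup 14) lay 73 bp inside its start-side end, 3 lay within the gene 134, 137 and 154 kb from that end (folds 8.4, 7.44 and 5.14), and 3 lay 42.1 to 44.5 kb upstream of the gene (folds 5.60 to 6.53). Foxo1 had 3 of lower fold (5.0, 4.4 and 4.05), grouped 46.4 to 48.2 kb downstream of its end, where Rbpj peaks reached a fold of 10.3 and no other gene was nearer. Foxn3 had 3 (folds 5.24, 7.00 and 7.94), 1 of them downstream and 2 within the gene. Foxk1 had 1 within the gene (fold 6.80). These members, with Foxb1, were the nearest gene to their peaks, 16 of the 21.

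For the other 3 genes a neighbour was nearer. The 3 HA-Zmiz1 peaks near Foxj1 (folds 5.06, 7.78 and 8.36) lay in Rnf157 or nearer to Exoc7. The peak near Foxh1 (fold 6.98, 373 bp from its end) lay within Kifc2, and that near Foxk2 (fold 4.90, 44.6 kb away) lay 55 bp from Wdr45b. With each peak counted for its nearest gene alone, 5 forkhead genes had HA-Zmiz1, 12.2%, against 12.5% of all coding genes, and 19 had Rbpj, 46.3%, against 45.1%. Within 5 kb of the span, HA-Zmiz1 was at 5 forkhead genes, 12.2%, against 12.1% of all coding genes. All 5 were active, and 21.8% of all active coding genes had such a peak. Flag-Zmiz1 was at 0 forkhead genes at that distance, against 1.36%. Within 200 kb, ICN1 in the HA line was at 6 forkhead genes, 14.6%, against 9.84% of all coding genes, and Flag-Zmiz1 also at 6, against 12.2%.

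**Figure D4:**
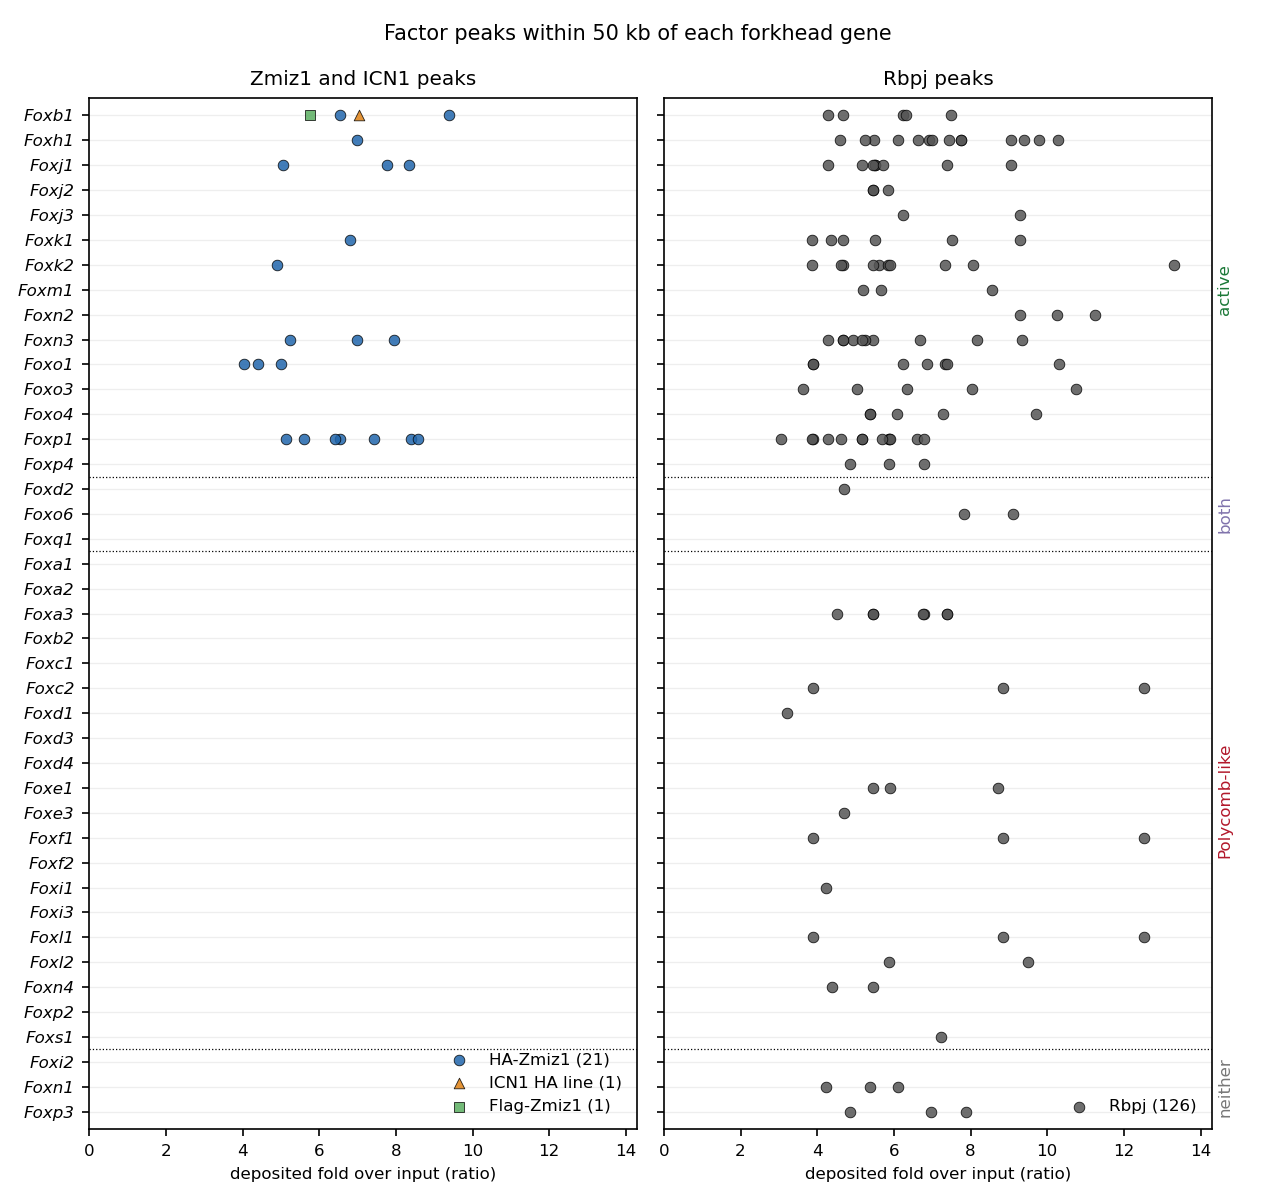
Deposited fold over input of every peak within 50 kb of each forkhead gene, with Zmiz1 and ICN1 peaks on the left and Rbpj peaks on the right. Genes run down the page by class. HA-Zmiz1 peaks (circles) appear in the active class alone, and ICN1 (triangle) and Flag-Zmiz1 (square) at Foxb1 alone, while Rbpj peaks occur in every class.

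Rbpj was the most widespread factor. It had 126 peaks within 50 kb of 30 forkhead genes, 73.2%, against 67.2% of all coding genes. All 15 active members had 1 or more, against 96% of all active coding genes, and so did 11 of 20 Polycomb-like members, against 65.4% of all Polycomb-like coding genes. The share was 2 of 3 among members with both marks (88.4% of such coding genes) and 2 of 3 among those with neither (35.7%). Within 5 kb, Rbpj was at 21 forkhead genes, 51.2%, against 48.7% of all coding genes, with 4 of the 20 Polycomb-like members among them, against 25.8% of that class. Within 200 kb it was at 38 forkhead genes, 92.7%, against 80.9%. A Rbpj summit lay within 1 kb of an end in 13 of 15 active members (80% of all active coding genes) and in 1 of 20 Polycomb-like members (2.86% of all Polycomb-like coding genes). That 1 was Foxa3, whose peak 746 bp from the gene was 92 bp from Sympk.

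The highest Rbpj fold near an active member (13.3) was 30.7 kb upstream of Foxk2, beside Cybc1. Near the members' own ends the strongest were at Foxn2 (fold 11.2, 1.07 kb within the gene, and 9.28, 185 bp outside it), Foxo3 (10.8, 158 bp upstream of the start), Foxh1 (10.3, 51 bp inside), Foxo4 (9.72, 232 bp inside) and Foxj3 (9.28, 77 bp upstream). Among Polycomb-like members, Foxc2 and Foxi1 alone were the nearest gene to a Rbpj peak (folds 3.88 and 4.22). The peak of fold 12.5 between Foxf1 and Foxc2 lay in Mthfsd, in H3K4me3 and outside the Polycomb-like segments.

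The promoters of Foxo3, Foxj3, Foxo1 and Foxp1 are shown because they held the strongest promoter Rbpj peaks among the members in the RefSeq promoter table, which gives 250 bases before and 50 after a start (GRCm38.p6). Of the 41 members, 26 were matched. Capitals mark the Rbpj core TGGGAA or its complement TTCCCA. The windows are chr10:42276646-42276945 (minus strand) for Foxo3, chr4:119539411-119539710 (plus) for Foxj3, chr3:52268087-52268386 (plus) for Foxo1 and, for the Foxp1 start with the strongest of 3 promoter peaks, chr6:99266466-99266765 (minus). The Foxp1 start is an internal one, and its Rbpj summit (fold 5.86) lay 44 bp past it.
Foxo3: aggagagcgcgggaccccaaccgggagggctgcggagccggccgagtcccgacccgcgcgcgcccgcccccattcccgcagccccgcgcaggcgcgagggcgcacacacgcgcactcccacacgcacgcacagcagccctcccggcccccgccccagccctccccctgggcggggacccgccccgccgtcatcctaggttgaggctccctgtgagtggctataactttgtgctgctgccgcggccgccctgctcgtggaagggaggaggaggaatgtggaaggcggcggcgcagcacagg
Foxj3: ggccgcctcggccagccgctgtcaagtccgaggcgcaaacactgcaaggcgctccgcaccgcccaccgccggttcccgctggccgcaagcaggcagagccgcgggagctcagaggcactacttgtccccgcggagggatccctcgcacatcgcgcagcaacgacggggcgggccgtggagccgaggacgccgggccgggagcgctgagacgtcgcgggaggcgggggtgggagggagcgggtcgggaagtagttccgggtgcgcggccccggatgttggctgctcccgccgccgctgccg
Foxo1: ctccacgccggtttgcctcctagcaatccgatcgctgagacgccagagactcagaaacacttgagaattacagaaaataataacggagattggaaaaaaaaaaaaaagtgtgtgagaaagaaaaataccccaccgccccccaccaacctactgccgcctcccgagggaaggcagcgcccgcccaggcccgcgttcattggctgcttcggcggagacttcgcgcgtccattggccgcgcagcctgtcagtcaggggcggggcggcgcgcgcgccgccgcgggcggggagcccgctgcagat
Foxp1: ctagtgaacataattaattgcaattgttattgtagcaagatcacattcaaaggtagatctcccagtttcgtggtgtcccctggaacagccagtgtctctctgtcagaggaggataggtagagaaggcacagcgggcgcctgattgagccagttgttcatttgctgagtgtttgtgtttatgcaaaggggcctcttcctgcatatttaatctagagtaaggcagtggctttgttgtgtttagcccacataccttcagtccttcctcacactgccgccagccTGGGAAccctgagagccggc
The Rbpj core was found in the Foxp1 window, at base 281, and in none of the other 3. Over both strands, 5 of 31 promoter windows of forkhead genes held it, 16.1%, against 24.5% of 21263 windows of all coding genes. The forkhead core TGTTTAC or GTAAACA was found in 1 of the 31, at Foxa1, against 3.01% of all windows. The active windows Foxo3, Foxj3 and Foxo1 held 35, 42 and 31 CpGs and the Foxp1 window 5.

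The Polycomb-like members lay in wide segments. Their widest segment of the library labelled H3K27ac over an end had a median width of 19.9 kb, against 8.2 kb in all Polycomb-like coding genes, and a median fold of 4.33, against 3.09. With the 3 members that had both marks, 11 of 23 had a segment of at least 20 kb (12.7% of all coding genes with such a segment over an end) and 8 of 23 a fold of at least 5 (10.8%). The whole gene lay inside such segments in 13 of the 20, against 14.7% of all Polycomb-like coding genes, which had longer spans. H3K4me1 and the library labelled H3K27me3 lay over an end in 0 of the 20, against 9.24% and 2.19% of all Polycomb-like coding genes.

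Foxa2, a pioneer factor of endoderm and floor plate, lay in the widest segment, 56.8 kb (2657 reads, against 994 in the control, fold 4.86, interval 4.52 to 5.23), wider than 99.9% of the segments in that library. Foxi3, known for ectodermal appendages, had 47.8 kb (1692 reads against 889, fold 3.46, interval 3.19 to 3.76). Foxs1 had 40.4 kb (1598 reads against 655, fold 4.44, interval 4.05 to 4.87). Foxd1, of the kidney stroma, had 31.6 kb (fold 5.43, interval 4.93 to 5.98), Foxf2 30.6 kb (4.95, 4.47 to 5.49), Foxf1 28.2 kb (6.21, 5.53 to 7.00) and Foxl2, of the ovary, 24.4 kb (6.35, 5.60 to 7.22). Segments of Foxi3, Foxs1 and Foxf1 also held ends of other genes, Tex37, Dusp15 with Ttll9, and Mthfsd. The fold was highest at Foxc1, a gene of mesoderm and eye (879 reads against 241, fold 6.63, interval 5.75 to 7.68, 15.4 kb), followed by Foxl2, Foxf1 and Foxb2 (6.20, interval 5.45 to 7.06). The intervals of these 4 overlapped.

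**Figure D5:**
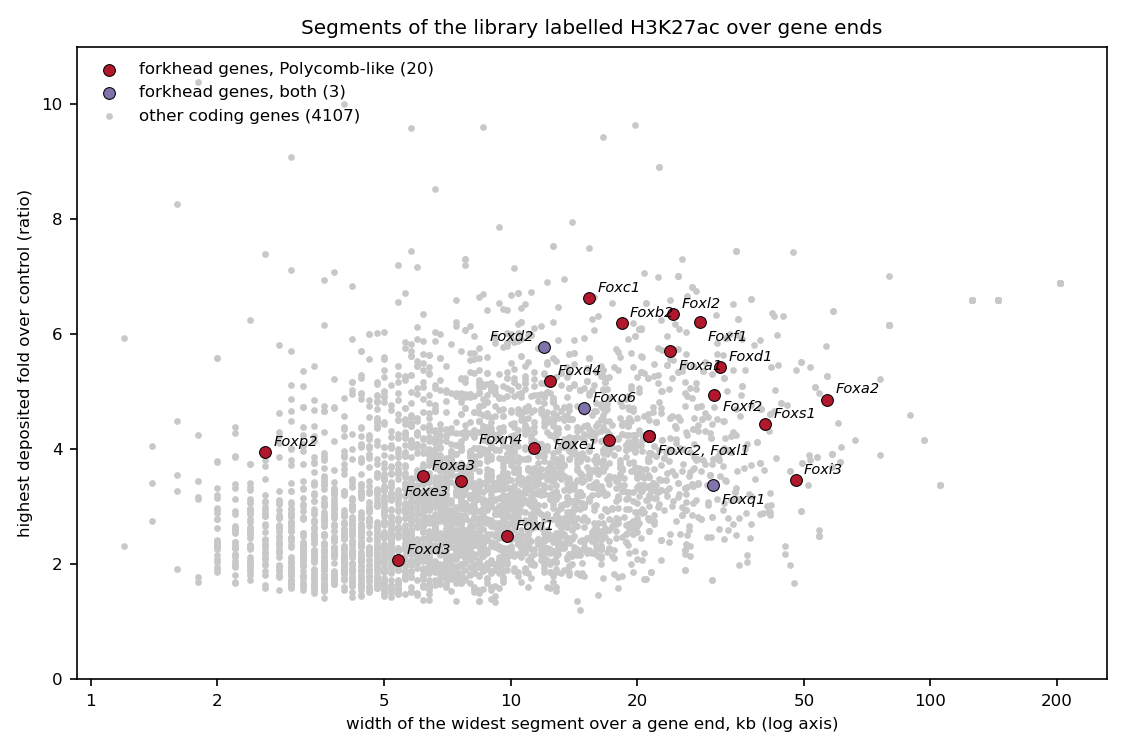
Width (log axis) and highest deposited fold over control of the segments of the library labelled H3K27ac over gene ends, for 23 forkhead genes (named) among the 4130 coding genes with such a segment (others grey). Of the forkhead genes, 11 have a segment of at least 20 kb, Foxa2 at 56.8 kb the widest, while Foxp2, Foxd3 and Foxa3 have the narrowest.

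Promoters of Foxa2, Foxi3 and Foxd1 are shown as those in the promoter table under the widest segments. The windows are chr2:148046920-148047219 (minus) for Foxa2, chr6:70956356-70956655 (plus) for Foxi3 and chr13:98353995-98354294 (plus) for Foxd1. The Rbpj core, which would be in capitals, was found in none of them.
Foxa2: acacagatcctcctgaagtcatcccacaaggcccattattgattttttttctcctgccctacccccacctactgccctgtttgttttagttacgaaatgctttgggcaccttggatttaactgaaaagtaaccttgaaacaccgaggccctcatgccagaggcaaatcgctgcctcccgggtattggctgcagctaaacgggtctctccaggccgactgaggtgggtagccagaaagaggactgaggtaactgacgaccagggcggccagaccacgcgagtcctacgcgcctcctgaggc
Foxi3: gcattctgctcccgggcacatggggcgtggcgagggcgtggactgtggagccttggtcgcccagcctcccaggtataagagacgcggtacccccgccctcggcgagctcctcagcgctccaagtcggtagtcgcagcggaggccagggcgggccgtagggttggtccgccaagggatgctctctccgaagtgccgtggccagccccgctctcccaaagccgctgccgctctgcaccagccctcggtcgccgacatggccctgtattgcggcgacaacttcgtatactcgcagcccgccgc
Foxd1: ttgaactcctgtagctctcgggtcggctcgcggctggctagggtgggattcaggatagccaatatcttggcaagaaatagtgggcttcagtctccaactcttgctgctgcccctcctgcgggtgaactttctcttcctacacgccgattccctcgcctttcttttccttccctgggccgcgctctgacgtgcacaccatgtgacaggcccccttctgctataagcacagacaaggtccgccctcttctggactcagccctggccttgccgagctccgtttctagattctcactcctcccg
They held 12, 31 and 15 CpGs. Across the promoter windows, the observed over expected CpG ratio had a median of 0.887 in 10 windows of active members and 0.684 in 16 windows of Polycomb-like members, against 0.567 in all coding genes. The 2 ranges overlapped, from 0.282 to 1.28 in active members and from 0.232 to 0.943 in Polycomb-like members.

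Among the other Polycomb-like members, Foxa1, a pioneer factor of liver and gland epithelia, had 24.0 kb (fold 5.70), a segment that also held an end of Ttc6. Foxb2 had 18.4 kb, Foxd4 12.4 kb (5.19) and Foxn4, of the retina, 11.4 kb (4.03). Foxe1, of the thyroid, had 16.6 and 17.2 kb segments (4.15 and 3.58), and Foxe3, of the lens, 7.6 kb (3.44). Foxc1 and Foxe1 each had a gap of 0.8 kb between the segments of their ends, within the gene. The fold was lowest at Foxd3, of the neural crest, with 5.4 kb (98 reads against 86, fold 2.07, interval 1.54 to 2.80), followed by Foxi1, of the inner ear, with 9.8 kb (2.49, interval 2.04 to 3.04). The segments of Foxd3 and Foxi1 lay at the far side of the gene and did not cover its start. With the upper 50% of segments by fold, Foxd3 had neither mark. Foxa3 had 6.2 kb (3.53). The segment was narrowest at Foxp2, known from the brain and vocal learning, with 2.6 kb at its lower-coordinate end (50 reads against 23, fold 3.95, interval 2.37 to 6.79), which was 0.121% of its 541 kb span.

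Some members were neighbours. Foxc2 and Foxl1 lay in 1 segment of 21.4 kb (818 reads against 352, fold 4.23), and Foxf1 lay within 100 kb of them. Foxq1 with Foxf2 and Foxd2 with Foxe3 were the other groups at that distance, so the 41 genes stood for 37 loci. With 1 gene kept per locus, 19 genes kept the Polycomb-like library over an end, 18 H3K4me3 and 27 a Rbpj peak within 50 kb.

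Foxd2, Foxo6 and Foxq1 had both marks, but not always at the same end. At Foxd2, H3K4me3 lay at the start (3.0 kb, 736 reads against 65, fold 17.4, interval 13.5 to 22.7) together with the library labelled H3K27me3 (1.2 kb, fold 6.0) and a Rbpj summit 88 bp upstream (fold 4.70). The Polycomb-like library covered 12 kb from its far side (530 reads against 167, fold 5.77, interval 4.84 to 6.91). At Foxo6, the FoxO gene of the brain, H3K4me3 was narrow (1.6 kb, 133 reads against 29, fold 7.04, interval 4.68 to 10.9), and the Polycomb-like library lay over both ends in segments of 15.0 kb (fold 4.72) and 6.6 kb (2.82). Foxq1, a gene of hair and epithelia, had 1.6 kb of H3K4me3 (185 reads against 25, fold 11.4, interval 7.45 to 18.0) inside a Polycomb-like segment of 30.4 kb (fold 3.38, interval 3.04 to 3.77) and no Rbpj peak within 50 kb. Foxo6 was the sole FoxO gene with Polycomb-like cover. Whether both marks sat on the same chromosome copies was not tested.

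Foxi2, Foxn1 and Foxp3 had no H3K4me3 and no Polycomb-like segment over an end. Foxi2 had no segment of any library over its span. Foxp3 had 1 H3K4me1 segment, over 15.4% of its span, and no HA-Zmiz1 peak nearer than 4100 kb, and its 3 Rbpj peaks within 50 kb were nearest to Ppp1r3f, Ccdc22 and Syp. Foxn1 had Polycomb-like segments within 40.4% of its span, 3 H3K4me1 segments and 1 of H3K4me3, with Rbpj peaks 966 bp inside its lower-coordinate end (fold 6.12) and 1.91 kb beyond it (fold 5.38).

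Genes that act with the forkhead factors were examined as lists. Of 22 genes known as FoxO targets, 20 had H3K4me3 over an end (90.9%, against 46.6% of all coding genes). HA-Zmiz1 lay within 50 kb of 14 (63.6%), against 27.8% of all coding genes and 43% of all active coding genes. The highest folds were at Tcf7 (17.6), Cdkn1a (13.5), Ctla4 (10.3) and the neighbours Rag1 and Rag2 (10.19, shared peaks). ICN1 in the HA line was called at Tcf7, Cdkn1a and Bcl6. Of 19 genes upstream of the FoxO proteins, 14 had H3K4me3 (73.7%) and 0 the Polycomb-like library, against 46.6% and 18.9% of all coding genes. HA-Zmiz1 was at 8 (42.1%), among them the phosphatase Inpp5d (11.7) and the kinase Sgk1 (7.94). That share was close to the 43% of all active coding genes. Of 16 mitotic genes known as Foxm1 targets, 14 had H3K4me3 and 0 the Polycomb-like library. HA-Zmiz1 was at 7 of the 16 (43.8%), also close to 43%, with the highest folds at Cenpf (10.21) and Aurkb (8.51).

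Of the FoxO targets, 4 had the Polycomb-like library over an end (18.2%), and lists tied to Foxa1 and Foxa2, Foxp3, Foxn1 and Foxj1 had it in larger shares of their genes. Of 14 genes listed with Foxa1 and Foxa2 as endoderm or liver genes, 1 had H3K4me3 (7.14%) and 0 HA-Zmiz1. The Polycomb-like library was at 10 of them (71.4%, against 18.9% of all coding genes). Of all coding genes, 46.6% had H3K4me3 over an end and 27.8% HA-Zmiz1 within 50 kb. Of 15 genes of the regulatory T-cell programme of Foxp3, 8 had H3K4me3 (53.3%) and 9 the Polycomb-like library (60.0%). HA-Zmiz1 was at 6 (40.0%), strongest at Il2ra (12.4) and Ctla4 (10.3). With the upper 50% of segments by fold, the Polycomb-like library was at 4 of those 15 and at 3 of the FoxO targets. Of 12 Foxn1 targets or thymic epithelial markers, 4 had H3K4me3 and 6 the Polycomb-like library, and 3 had HA-Zmiz1, strongest at Ctsl (14.5). Of 10 matched cilium genes tied to Foxj1, 2 had H3K4me3 and 3 the Polycomb-like library, and 4 had HA-Zmiz1, strongest at Mcidas (8.47), where ICN1 was also called in the HA line (5.74). The lists were small and were described by these counts alone.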

How the data were processed

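ChIP-seq of 5 factor, 4 histone and 2 input libraries was used, with 1 library for each target and line. Reads were mapped to mm10, with SICER 1.1, HOMER 4.2, Bowtie 0.12.7, MACS2 2.0.10 and FastQC 0.10.0 listed, per the submitters' processing notes. Peaks came from MACS 2.0.10.20120913 run on each line's own input at a p limit of 1e-05, as the file headers state. The headers of the HA-line peak lists name pooled reads, and what was pooled is not given in the sources used here. The pileup signal, the fold ratio over local input and the −log10 p of each peak are the authors' deposited values. Segments have steps of 200 bp and a false discovery rate of at most 0.001 in the files, and their read counts, fold ratios and p-values are as the authors deposited them. How histone depth was scaled is not given in the sources used here.

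Gene spans came from the RefSeq table of GRCm38.p6, the same assembly as mm10. A segment counted for a gene when it covered a gene end, and a peak when its nearest base lay within 50 kb of the span. Active means H3K4me3 without the library labelled H3K27ac over an end, and Polycomb-like the reverse. Strand was taken from the promoter table, which held 26 of the 41 genes. Fold intervals are exact binomial intervals at 95% on the read counts, and cover counting error only. They were brought to the scale of the folds by each library's median ratio of deposited fold to plain count ratio. The counting was tested on simulated data. With no replicates, no test was run, and lists are described by counts beside all coding genes. Members and lists were chosen with earlier results of these data known.

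Values are given for members with Zmiz1 or ICN1 within 50 kb, with H3K4me3 over an end, with both marks, or among the 8 widest or 8 highest segments of the library labelled H3K27ac. For some of these members the read counts or fold intervals are left out. From each list at most 4 genes with a Zmiz1 or ICN1 peak are named, by fold. Some genes that this rule names are not reported here. Alternatives changed the window, the part of the gene covered, the segments or peaks kept, and the members kept. Python 3.11.15 with pandas 2.3.3, numpy 2.4.6, scipy 1.17.1 and matplotlib 3.10.9 was used.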

Additional observations from a re-analysis of the deposited data

How the results depend on the processing

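Of 147 alternative values, 94 stayed within 1.5 times of the reported count and 53 did not. No paired analysis was possible because each target had 1 library in a line. Counting the annotated transcription start alone left 26 members, of which 8 had H3K4me3, 2 H3K4me1, 8 the library labelled H3K27me3 and 12 the library labelled H3K27ac, with 8 active, 0 with both, 12 Polycomb-like and 6 with neither. In those classes 3 active members had HA-Zmiz1, 0 ICN1 in the HA line, 0 Flag-Zmiz1 and 8 Rbpj, and 5 Polycomb-like members had Rbpj. H3K4me1 lay over 3 members with the upper 50% of segments. It lay over 3 where a segment had to cover an end and 500 bp on both sides of it. Anywhere in the span it lay over 18, and counted that way 6 members had both marks. A window of 5 kb gave HA-Zmiz1 at 5 members, all active, Flag-Zmiz1 at 0 members and 0 active ones, and Rbpj at 4 Polycomb-like members. A window of 200 kb gave HA-Zmiz1 at 22 members, ICN1 in the HA line at 6 and Flag-Zmiz1 at 6. Among active members these were 3 for ICN1 and 4 for Flag-Zmiz1, and among Polycomb-like members 9 for HA-Zmiz1, 2 for ICN1, 2 for Flag-Zmiz1 and 17 for Rbpj. With each peak given to its nearest gene, HA-Zmiz1 was at 5 members and Rbpj at 19. With −log10 p of at least 10, Flag-Zmiz1 was at 0 members and 0 active ones, and Rbpj at 7 Polycomb-like members. For the lists, 5 kb left HA-Zmiz1 at 9 FoxO targets, 4 Foxm1 targets, 0 thymic epithelial, 1 cilium and 0 Polycomb reference genes. It left Rbpj at 7 regulatory T-cell, 5 thymic epithelial, 3 cilium, 2 endoderm and 5 Polycomb reference genes. The upper 50% of segments left the library labelled H3K27ac at 4 regulatory T-cell genes, and H3K4me3 at 2 thymic epithelial, 0 endoderm and 1 Polycomb reference genes. Chosen after seeing the data were 2 alternatives. Without H3K4me3 segments that hold another gene's end, 7 members had neither mark, and without Foxb1, 0 active members had ICN1 in the HA line and 0 Flag-Zmiz1. The narrower windows and stricter limits keep fewer regions by construction. The start-only setting can call no more than 26 members, and its counts were set against counts over 41. It gave 8 of the 53 values outside 1.5 times directly and 5 through its classes. The causes of the other shifts were not tested. The Flag-line ICN1 list held 82 peaks, and whether its 0 near the family came from how much was called was not tested.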
